A study of Homo sapiens with 6 samples.

Results

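The genes described here are the replication-dependent histone genes of Hs578T cells, a mesenchymal-like triple-negative breast cancer cell line. Members were all rows of the count table whose symbol follows the naming of the clustered histone genes, that is H1 with a hyphen and a number, or H2AC, H2BC, H3C or H4C with a number, which gave 70 genes of 46427. They comprise 10 H1 genes, 16 H2A genes, 17 H2B genes, 13 H3 genes and 14 H4 genes. RNA came from 3 libraries of Hs578T cells carrying a control shRNA (shCTRL) and 3 libraries of Hs578T cells carrying CCN3 shRNA #2 (shCCN3), and the comparison asked how loss of the secreted matricellular protein CCN3 changed the transcriptome. Both groups were infected with a pSUPER-retro retrovirus and selected with puromycin, and the study's methods call the selected cells clones, so the knockdown cannot be told apart from other differences between these cell lines. Libraries were made with a stranded mRNA kit that selects poly(A) RNA. Nothing in the labels says that replicates came from separate cultures, so p-values measure only the spread between these libraries.

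Histone genes of this class supply the nucleosome with its core proteins H2A, H2B, H3 and H4 and with the linker histone H1 while DNA is copied. They lack introns, are transcribed in S phase, and their mRNAs normally end in a conserved RNA hairpin instead of a poly(A) tail. The hairpin is bound by SLBP, the U7 snRNP directs the cut just downstream, and the mRNA is degraded when S phase ends. A library that selects poly(A) RNA therefore records the polyadenylated forms that some of these genes make, and whatever tail-less mRNA is carried along, and not the bulk of histone mRNA. H1-10, a member by symbol, is a replication-independent linker histone gene with an ordinary polyadenylated mRNA, and H1-6, H1-7, H1-8, H2AC1 and H2BC1 are known from germ cells.

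The hairpin is shown because it is the feature that keeps most histone mRNA out of such a library. GENCODE release 29 transcripts of 26 of the 70 members held a perfect hairpin with a stem of 6 bases, starting GG and ending CC, around a loop of 4 bases that starts with TT, in 4 different forms. Each is printed 5′ to 3′ with the stem in capitals, for a member that carries it, with GRCh38 coordinates.
H2AC8, chr6:26217417-26217432, plus strand, form of 15 members: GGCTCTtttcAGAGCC
H2BC5, chr6:26158587-26158602, plus strand, form of 4 members: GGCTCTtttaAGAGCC
H4C11, chr6:27824459-27824474, plus strand, form of 4 members: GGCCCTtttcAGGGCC
H4C14, chr1:149833032-149833047, plus strand, form of 3 members: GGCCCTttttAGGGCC
The stem of the H4 genes differed from that of the H2A, H2B and H3 genes. In 17 of the 26 the hairpin ended 5 bases before the end of the RefSeq gene, as in H2AC8. In 5 others the RefSeq gene ran on far beyond it, by 1729 bases in H2BC21, 10302 bases in H2BC4, 12747 bases in H2BC5, 16281 bases in H4C15 and 29196 bases in H2BC18. GENCODE transcripts ran further than RefSeq in some of the 17, by 1640 bases beyond the hairpin in H2BC9 and 6720 bases in H4C14. In others of the 17 they stayed close, with 51 bases in H2AC8. For members in which no hairpin was found, many GENCODE models stop close to the stop codon. A hairpin that was not found there says nothing about the gene. The model of H1-10 ran 493 bases past the coding sequence without one.

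Promoter sequences, from 250 bases before to 50 bases after each RefSeq gene start on GRCh38.p14, were at hand for 64 members. They were searched on both strands for 4 short motifs, none of which contains another. The CCAAT box was in 84.4% of member promoters and in 34.6% of 35116 promoters of all genes, and the TATA box TATAAA was in 65.6% against 11.5%. The octamer ATTTGCAT, the site read by the POU factor OCT1 in H2B promoters, was in 82.4% of H2B and 73.3% of H2A promoters. It was in 9.09% of H3 promoters, that of H3C4 alone, and in 1.77% of all promoters. H3C4 and H2AC7 have the same RefSeq start and so the same promoter window. The H1 box AAACACA was in 77.8% of H1 promoters against 5.64% of all. H4 promoters differed from the other core histones, with the CCAAT box in 25.0%, whereas every H2A, H2B and H3 promoter held it. The windows below belong to the members whose values the results turn on, with the motif in capitals as it reads along the gene.
H1-2, H1 box, chr6:26056572-26056599, minus strand: gaggtggaacAAACACAacttgggagca
H2BC12, octamer, chr6:27146887-27146914, minus strand: tcttcaccttATTTGCATgagaggtcct
H2BC21, octamer, chr1:149886711-149886738, minus strand: cggagccctaATTTGCATaaggtggtta
H2AC20, the same octamer read from the other side, chr1:149886711-149886738, plus strand: taaccaccttATGCAAATtagggctccg
H2AC8, octamer, chr6:26216719-26216746, plus strand: taggcctttcATGCAAATaaagaattca
H2AC4, octamer, chr6:26033719-26033746, minus strand: gaaggattacATGCAAATgaaggatgca
H3C1, TATA box, chr6:26020411-26020438, plus strand: actttacacacTATAAAtagagcagctc
A motif match is a description of these letters and not of a factor bound there.

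The libraries held 56159110 to 68393177 counts, so that 3 counts correspond to 0.0439 to 0.0534 CPM, the count relative to the library total in megacounts, and levels are given as CPM after TMM scaling. Limits of this kind cover counting error only. The targeted gene CCN3 stood at 98.1 to 103 CPM in shCTRL and 46.5 to 47.4 CPM in shCCN3. VIM, the mesenchymal marker, was at 6617 to 7990 CPM, whereas the epithelial markers CDH1, EPCAM and ESRP1 were at most 0.141 CPM, ESR1 at most 0.156 CPM, and the leukocyte marker CD3E had 0 counts. PGR was at 2.66 to 4.56 CPM, and PTPRC, a leukocyte marker, at up to 0.203 CPM, with 9 to 13 counts in the shCCN3 libraries and 0 to 10 in the shCTRL libraries. KRT8, KRT18 and ERBB2 transcripts were present, ERBB2 at 72.0 to 82.8 CPM and KRT18 at 156 to 263 CPM. The shCCN3 replicate 2 library stood furthest from the others of its group, with a chi-square per degree of freedom of 34.7 and 42.5 against its fellows and 9.28 between those, so results that rest on it are also given without it.

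Detection was uneven across the members. Of the 70, 43 passed the filter on low counts (about 0.152 CPM in at least 3 libraries) and were tested, namely 5 H1, 11 H2A, 10 H2B, 9 H3 and 8 H4 genes. The other 27 reached at most 24 counts in any library, and 10 of them, H1-1, H1-5, H1-7, H2AC1, H2AC16, H2BC14, H3C11, H4C6, H4C7 and H4C13, had no count in any library. Of the 43, 30 passed the limit in every library. A further 10, H1-3, H2AC4, H2AC7, H2AC8, H2AC12, H2BC13, H2BC18, H3C4, H3C13 and H3C14, passed it in every shCTRL library but not in every shCCN3 library, and 0 did the reverse. Such genes enter the test through the group in which they are high, so counts and medians over the tested members describe those genes and are no evidence about the class.

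Most of the signal of the clustered histone genes came from few of them. Of the counts of the 68 members of the clusters on chromosomes 6 and 1 with H1-7 and H1-8, H1-2 held 36.4% and H2BC12 20.2%, and the next, H2BC5, held 4.53%. Per kilobase of GENCODE exon, the shCTRL levels were 259 CPM for H1-10, 54.7 CPM for H2BC12 and 50.4 CPM for H1-2, followed by H2AC20 with 7.71, H2AC19 with 6.04, H2BC5 with 5.87 and H2AC18 with 5.62 CPM per kilobase. The shCTRL libraries of H2BC12 and H1-2 overlapped on this scale, as did those of H2AC19, H2BC5 and H2AC18. In shCCN3 the order of the leading clustered genes was reversed, with 79.5 CPM per kilobase for H1-2 and 66.1 for H2BC12. The GENCODE length of H2BC12 covers the coding part alone, while its RefSeq gene spans 8566 bases, so its level per kilobase depends on that choice.

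The histone genes that passed the test moved in both directions. H1-2, H2BC12 and H3C6 rose, while H2AC8, H2AC4, H3C1, H3C3 and H2AC20 fell, at an adjusted p under 0.05 (quasi-likelihood test of edgeR, adjusted by Benjamini-Hochberg across the 17419 genes tested). These 8 of 43 are 18.6% of the tested members, against 33.4% of all genes tested. By direction, 3 of 43 rose against 16.2% of all genes, and 5 of 43 fell against 17.3% of all genes. H2AC8, H2AC4 and H3C1 fell by at least 2-fold, a size that 8.1% of all genes passed together with the test. Without shCCN3 replicate 2, 5 members differed by at least 2-fold, in a fit that called 40.5% of all genes at any size. The groups did not overlap in 14 of 43 members, 10 of them lower and 4 higher in shCCN3, against 46.3% of all genes. Of the 10, H2AC4, H2AC7, H2AC8, H2BC18 and H3C14 passed the filter in every shCTRL library but not in every shCCN3 library. The median log2 fold change was -0.20 over the tested members and 0.01 over all genes, with 28 members below and 15 above 0. These counts by direction and this median describe the tested members and are no evidence about the class. Without the filter on low counts, 60 members had a value, with a median of -0.24 against 0.02 over all genes. Counts of calls moved with single libraries: 5 members were called without shCCN3 replicate 1 (25.2% of all genes called in that fit) or without shCTRL replicate 1, 2 or 3 (27.0, 23.4 and 26.2% of all genes), 8 without shCCN3 replicate 3 (26.9%) and 10 without shCCN3 replicate 2 (40.5%). In bulk RNA, less transcript per cell and fewer cells that carry it cannot be told apart.

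**Figure D1:**
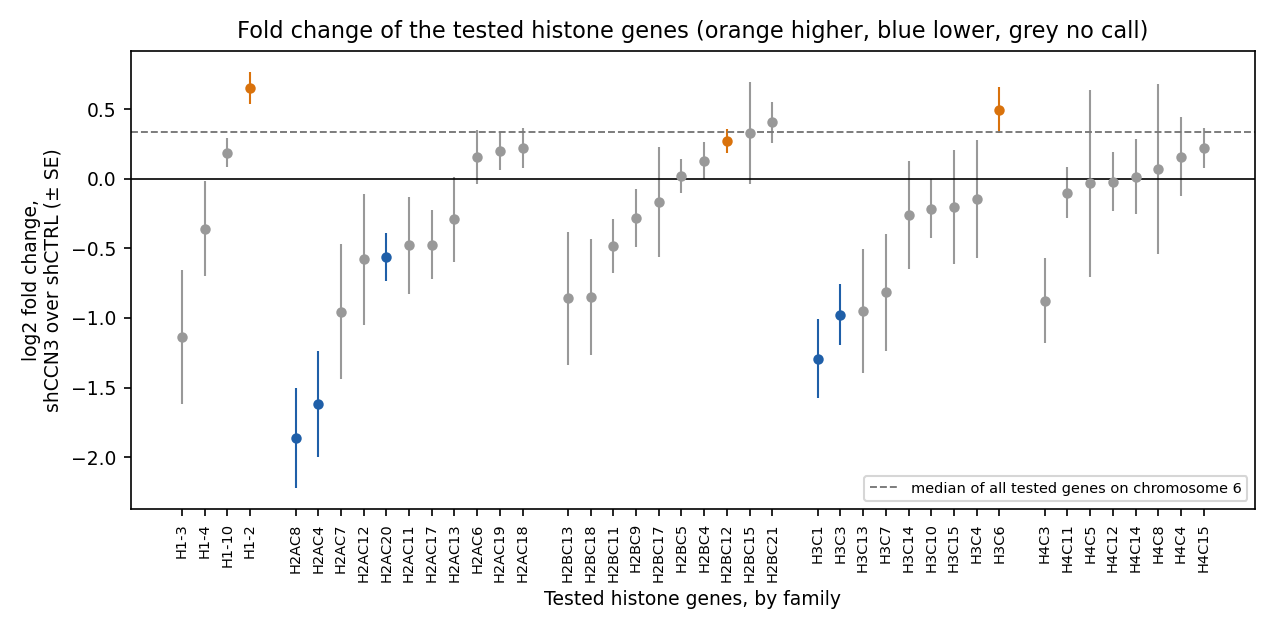
Log2 fold change (vertical axis, shCCN3 over shCTRL, bars ± SE of the edgeR fit) of tested histone genes, grouped by family and ordered by value, with genes that rose in orange, genes that fell in blue and no call in grey. The values run from -1.86 (H2AC8) to 0.66 (H1-2). The dashed line marks the median of all tested genes on chromosome 6, 0.34, the chromosome that holds most of the members.

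Among the linker histones, H1-2 was the member with the largest increase. H1-2 (NCBI Gene ID 3006, chr6:26055740-26056470, minus strand) encodes a somatic linker histone that binds the DNA between nucleosomes. Its level was 31.3, 30.4 and 35.4 CPM in shCTRL replicates 1 to 3 and 49.4, 60.2 and 43.5 CPM in shCCN3 replicates 1 to 3. All shCCN3 libraries lay above all shCTRL libraries, and replicate 2 was the highest. The means were 32.4 ± 2.66 and 51.0 ± 8.44 CPM (SD, n = 3), a log2 fold change of 0.66 ± 0.12 (SE, edgeR adjusted p = 0.00222). Without shCCN3 replicate 2 it was 0.52 (edgeR adjusted p = 0.000583). H1-2 passed the test in all 14 alternative fits that were run, with log2 fold changes from 0.52 to 0.76.

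The other tested linker histone genes did not pass the test. H1-10 was at 361, 381 and 431 CPM in shCTRL and at 398, 517 and 422 CPM in shCCN3, with 0.19 ± 0.10 (SE, edgeR adjusted p = 0.201). Its highest value again belonged to shCCN3 replicate 2, and without that library the log2 fold change was 0.07. The antisense gene H1-10-AS1 rose by 0.50 on the log2 scale (edgeR adjusted p = 0.0101). Its RefSeq gene starts at chr3:129316271 and overlaps that of H1-10 (chr3:129314771-129316286) only at this edge. The replication-dependent genes H1-3 and H1-4 were low, at 7 to 26 and 15 to 34 counts per library, with log2 fold changes of -1.14 (edgeR adjusted p = 0.104) and -0.36 (edgeR adjusted p = 0.464). The H1 result thus concerned H1-2 and not the family as a whole.

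**Figure D2:**
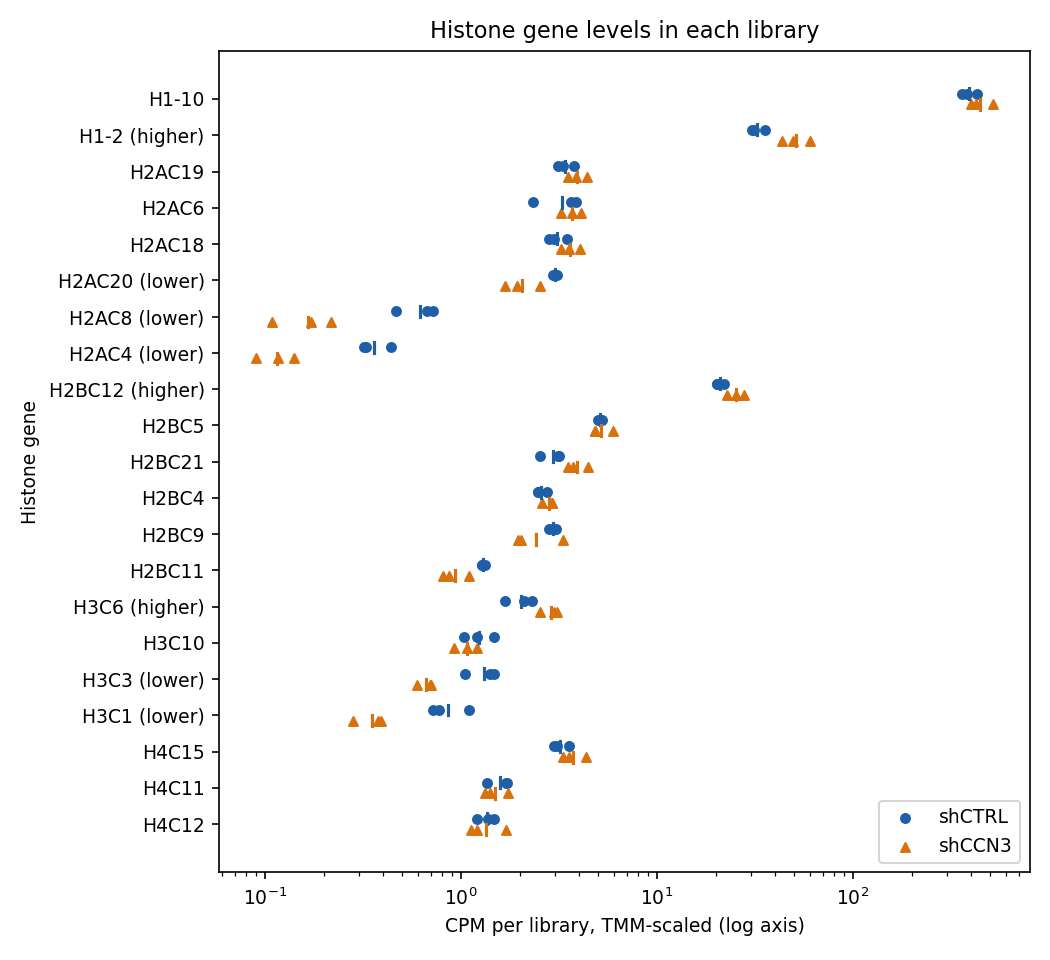
Level of histone genes with a mean of at least 1 CPM or with a call, in CPM on a log axis, with each library as a point (shCTRL circles, shCCN3 triangles) and the group mean as a vertical tick. H1-2, H2BC12 and H3C6 have every shCCN3 library to the right of every shCTRL library, and H2AC8, H2AC4, H3C1, H3C3 and H2AC20 have every one to the left.

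Of 11 tested H2A genes, 3 fell, against 17.3% of all genes, and the median was -0.48. H2AC4, H2AC7, H2AC8 and H2AC12 passed the filter in every shCTRL library but not in every shCCN3 library. The count and the median thus describe the tested genes and are no evidence about the family. H2A pairs with H2B in the dimers that flank the central H3-H4 tetramer. H2AC8 (Gene ID 3012, chr6:26216921-26217437, plus strand) was at 0.466, 0.668 and 0.715 CPM in shCTRL and at 0.218, 0.108 and 0.172 CPM in shCCN3. These values stand for 32, 42 and 48 counts against 15, 6 and 11 counts, with no overlap. The log2 fold change was -1.86 ± 0.36 (SE, edgeR adjusted p = 0.0035), the largest decrease among the members, and the call held in 13 of 13 alternative fits that tested the gene.

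H2AC4 (Gene ID 8335, chr6:26033092-26033618, minus strand) gave 30, 20 and 22 counts in shCTRL and 8, 5 and 9 counts in shCCN3. The groups were apart, at 0.361 ± 0.0657 and 0.116 ± 0.0254 CPM (SD, n = 3), a log2 fold change of -1.62 ± 0.38 (SE, edgeR adjusted p = 0.00969). Its call was lost only without shCTRL replicate 1 (edgeR adjusted p = 0.0504). H2AC20 (Gene ID 8338, chr1:149886918-149887411, plus strand) was at 3.01, 2.93 and 3.08 CPM in shCTRL and at 1.67, 2.52 and 1.94 CPM in shCCN3. Its shCTRL libraries were close together and its shCCN3 libraries all lower, with -0.56 ± 0.17 (SE, edgeR adjusted p = 0.0318). Without shCCN3 replicate 2 the log2 fold change was -0.74 (edgeR adjusted p = 0.00362). The call was lost when any other library was left out, with edgeR adjusted p of 0.109 without shCCN3 replicate 1, 0.0905 without shCCN3 replicate 3, and 0.08, 0.0793 and 0.0807 without shCTRL replicates 1, 2 and 3.

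The more abundant H2A genes overlapped between the groups. H2AC6 was at 3.65, 3.87 and 2.34 CPM in shCTRL and 4.08, 3.69 and 3.24 CPM in shCCN3, a log2 fold change of 0.16 ± 0.19 (SE, edgeR adjusted p = 0.579). H2AC18 and H2AC19 were at 3.09 ± 0.357 and 3.41 ± 0.341 CPM in shCTRL (SD, n = 3) and had log2 fold changes of 0.22 and 0.20 (edgeR adjusted p = 0.274 and 0.312). These are copies of each other on chromosome 1, and the ratio of H2AC19 to H2AC18 counts was 1.08 to 1.12 in every library, so their separate values are uncertain. The remaining tested H2A genes lay between -0.95 for H2AC7 and -0.29 for H2AC13 on the log2 scale with no call. H2AC7 passed the test only without shCCN3 replicate 2 (-1.51, edgeR adjusted p = 0.0281). H2AC7 shares all 510 bases of its span with H3C4 on the same strand.

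Of 10 tested H2B genes, 1 rose, against 16.2% of all genes. H2BC12 (Gene ID 85236, chr6:27138293-27146858, minus strand), the most abundant core histone gene among the members, was at 22.0, 20.3 and 20.3 CPM in shCTRL and at 25.1, 27.7 and 22.7 CPM in shCCN3. Every shCCN3 library was above every shCTRL library, although shCCN3 replicate 3 and shCTRL replicate 1 were close. The log2 fold change was 0.27 ± 0.09 (SE, edgeR adjusted p = 0.0402). It passed in 7 of 14 alternative fits. Among the libraries, it passed only without shCCN3 replicate 3 (edgeR adjusted p = 0.0191), and not without shCCN3 replicate 1 (0.105) or 2 (0.0691), nor without shCTRL replicate 1 (0.0544), 2 (0.144) or 3 (0.121), all edgeR adjusted p. With the replicate number as a block, its edgeR adjusted p was 0.0713. The H4 gene H4C9 lies within its span on the other strand and had 24 counts in all libraries together.

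H2BC5 was at 4.99, 5.14 and 5.21 CPM in shCTRL and at 4.82, 5.97 and 4.80 CPM in shCCN3, and the groups overlapped (0.02 ± 0.12, SE, edgeR adjusted p = 0.914). H2BC21 was at 3.14, 3.12 and 2.53 CPM in shCTRL and at 4.44, 3.71 and 3.52 CPM in shCCN3. Its groups did not overlap, with 0.41 ± 0.15 (SE, edgeR adjusted p = 0.0612), and it passed the test only without shCCN3 replicate 2 (edgeR adjusted p = 0.0497). H2BC4 had a log2 fold change of 0.13 ± 0.13 (SE, edgeR adjusted p = 0.501). H2BC11 was at 1.28, 1.27 and 1.33 CPM in shCTRL and at 0.870, 1.10 and 0.813 CPM in shCCN3, lower in every library, with -0.48 ± 0.20 (SE, edgeR adjusted p = 0.090). H2BC9 was at 2.82, 2.94 and 3.04 CPM in shCTRL and at 1.94, 3.31 and 2.02 CPM in shCCN3. Here shCCN3 replicate 2 decided the value: the log2 fold change was -0.28 with it (edgeR adjusted p = 0.342) and -0.57 without it (edgeR adjusted p = 0.012). H2BC11 also passed only without that library (-0.62, edgeR adjusted p = 0.0419).

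Of 9 tested H3 genes, 1 rose and 2 fell, against 16.2% and 17.3% of all genes. H3 forms the centre of the nucleosome with H4, and its tail carries many of the known chromatin marks. H3C6 (Gene ID 8353, chr6:26224178-26227473, plus strand) was at 2.30, 2.1 and 1.68 CPM in shCTRL and at 2.99, 3.08 and 2.53 CPM in shCCN3. The groups were apart, with 0.50 ± 0.17 (SE, edgeR adjusted p = 0.0451). The call was lost without shCCN3 replicate 1 (edgeR adjusted p = 0.124) or 2 (0.0738), without shCTRL replicate 2 (0.1) or 3 (0.137), and when replicate number entered the fit as a block (0.0521).

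H3C1 (Gene ID 8350, chr6:26020451-26020958, plus strand) was at 0.771, 1.10 and 0.715 CPM in shCTRL and at 0.392, 0.378 and 0.281 CPM in shCCN3, which stands for 53, 69 and 48 counts against 27, 21 and 18. All shCCN3 libraries were lower, with -1.29 ± 0.28 (SE, edgeR adjusted p = 0.00701). H3C3 (Gene ID 8352, chr6:26045384-26045869, plus strand) was at 1.47, 1.05 and 1.40 CPM in shCTRL and at 0.696, 0.702 and 0.594 CPM in shCCN3, again with no overlap and -0.98 ± 0.22 (SE, edgeR adjusted p = 0.00775). Both calls held in 14 of 14 alternative fits. H3C10, at 1.21, 1.03 and 1.48 CPM in shCTRL and 1.20, 0.918 and 1.08 CPM in shCCN3, overlapped between the groups (-0.21 ± 0.21, SE, edgeR adjusted p = 0.486). The identical H3 protein is encoded by several of these genes, and here H3C6 differed in direction from H3C1 and H3C3.

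Of 8 tested H4 genes, 0 passed the edgeR quasi-likelihood test (33.4% of all genes passed), 1 had an unadjusted p under 0.05, and DESeq2 also called 0. That gene was H4C3, named after its values were seen, at 0.597, 0.589 and 0.596 CPM in shCTRL and at 0.406, 0.342 and 0.219 CPM in shCCN3. Its shCTRL libraries were nearly equal and its shCCN3 libraries all lower, with -0.88 ± 0.31 (SE, edgeR adjusted p = 0.0534). It was called by edgeR's exact test, by limma-voom and when at least 10 counts were required in every library. H4C15 (0.22 ± 0.15, SE), H4C11 (-0.10 ± 0.19, SE) and H4C12 (-0.02 ± 0.21, SE) overlapped between the groups, with edgeR adjusted p of 0.288, 0.733 and 0.955. The RefSeq gene of H4C15 overlaps H2AC19 and H3C15 on the other strand, and its counts were 1.0 to 1.1 times those of H2AC18 in every library, so its value is uncertain too.

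Summed over genes, the total of the clustered members followed H1-2. The 68 members of the clusters on chromosomes 6 and 1 with H1-7 and H1-8 summed to 103, 101 and 107 CPM in shCTRL and to 120, 140 and 112 CPM in shCCN3, a ratio of 1.20 with no overlap. Once H1-2 was left out, which was chosen after its values were seen, the sums were 72.1, 70.4 and 71.8 CPM against 70.9, 79.8 and 68.8 CPM, a ratio of 1.02 with overlap. The H1 sum was 31.9, 31.3 and 36.3 CPM against 49.7, 60.6 and 44.2 CPM (ratio 1.56, no overlap), nearly all of it H1-2. The H3 sum was 6.93, 7.08 and 7.05 CPM against 6.30, 6.06 and 5.66 CPM (ratio 0.856, no overlap). The H2A sum (ratio 0.926), the H2B sum (ratio 1.11) and the H4 sum (ratio 1.02) overlapped, although the H2B groups were apart when CPM was taken per library total without TMM scaling. These sums are descriptions of the libraries, without a test.

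**Figure D3:**
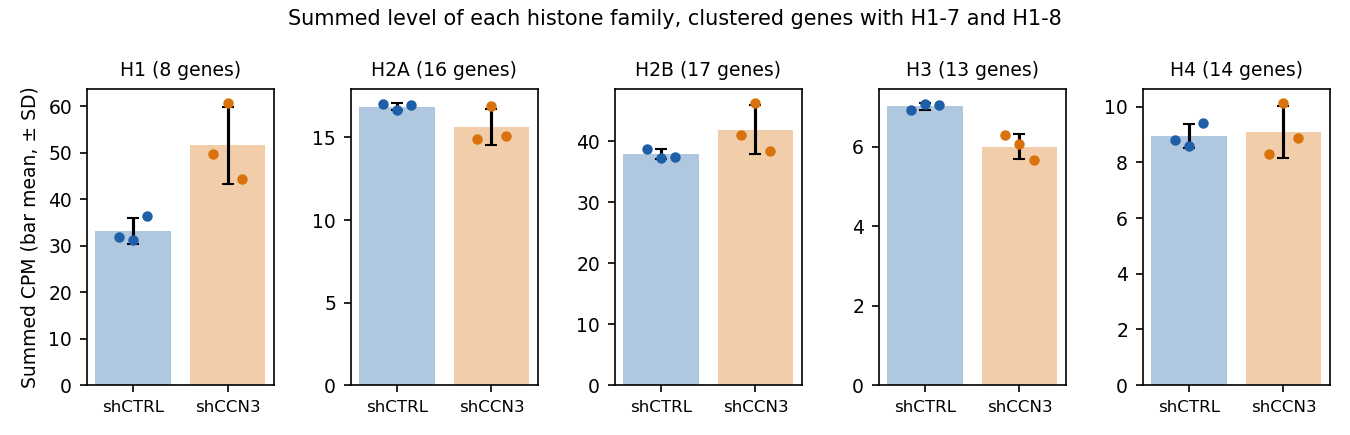
Summed level of the genes of each histone family in CPM, over the clustered genes with H1-7 and H1-8, with a bar at the group mean (axis from 0), SD as error bar and each of the 3 libraries as a point. The shCCN3 points lie above all shCTRL points for H1 (ratio 1.56) and below all of them for H3 (ratio 0.856), and the points overlap for H2A, H2B and H4.

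Among these 68 members, those with a RefSeq gene over 1 kb had a higher median log2 fold change than the compact ones. This split was chosen after the values and the annotation were seen, and it depends on the annotation used. GENCODE transcripts of H2AC6 and H2BC9, compact by RefSeq, ran 14432 and 1640 bases past the hairpin. Those of H2BC12 and H3C4, long by RefSeq, held 381 and 411 exon bases. Of the 10 longer genes 8 were tested, H2BC4, H2BC5, H2BC12, H2BC18, H2BC21, H3C4, H3C6 and H4C15, of which 2 rose, with a median log2 fold change of 0.18. Of the 58 compact genes 33 were tested, of which 1 rose (H1-2) and 5 fell, with a median of -0.29. Over all genes 16.2% rose and 17.3% fell, and the difference between the long and the compact genes was not tested. Summed, the longer genes were at 38.6, 36.7 and 36.4 CPM in shCTRL and at 43.6, 48.0 and 40.6 CPM in shCCN3 (ratio 1.18, no overlap). The compact genes without H1-2 were at 33.5, 33.7 and 35.4 CPM in shCTRL and at 27.3, 31.8 and 28.2 CPM in shCCN3 (ratio 0.851, no overlap), whereas with H1-2 the ratio was 1.20. Level moved with this split: the 16 of these members with a mean of at least 1 CPM had a median of 0.14 with 3 higher and 1 lower, and the 25 tested members under 1 CPM had a median of -0.48 with 4 lower. Since the filter on low counts admits genes of the second kind through their high group, and since polyadenylated and tail-less forms were not counted apart, the part of either in these differences was not tested.

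**Figure D4:**
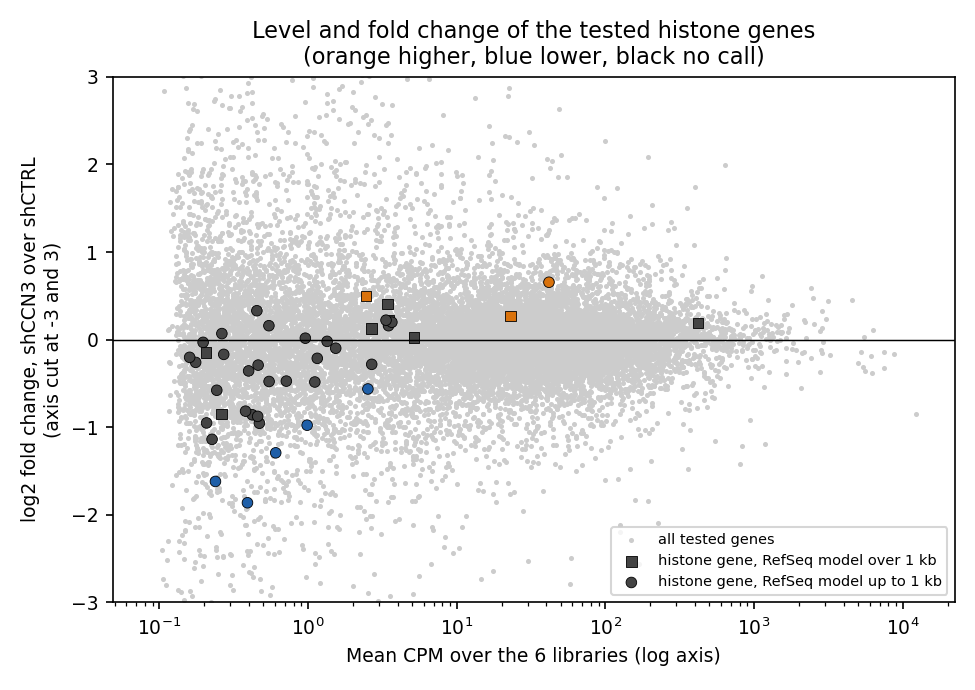
Mean level over the 6 libraries (horizontal, CPM, log axis) against log2 fold change (vertical, shCCN3 over shCTRL, larger changes not shown) for all 17419 tested genes in grey and tested histone genes as squares (RefSeq gene over 1 kb) or circles (up to 1 kb), orange where higher, blue where lower and black with no call. The 4 called genes under 1 CPM lie below 0, and the 3 that rose lie above 1 CPM.

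The tested members on chromosome 6 did not share the higher median of the genes around them. The large histone cluster on chromosome 6 (chr6:25726063-27893425 from the start of the first to the start of the last member, GRCh38.p14) holds 55 members and the cluster on chromosome 1 (chr1:149782689-149887469) holds 11. Of all 891 tested genes on chromosome 6, 412 were higher and 50 lower in shCCN3, with a median log2 fold change of 0.34, against 0.01 over all genes. The 31 tested members there had a median of -0.28, with 3 higher and 4 lower. Among them, H1-3, H2AC4, H2AC7, H2AC8, H2AC12, H2BC13 and H3C4 passed the filter in every shCTRL library but not in every shCCN3 library. The median and the counts of these members thus describe the tested genes and are no evidence about the class. Between the members sit 20 tested genes that are not histones, of which 12 were higher, with a median of 0.39. These include HMGN4, a nucleosome-binding protein gene, at 66.2 CPM in shCTRL and 95.3 CPM in shCCN3 (0.53 ± 0.06, SE, edgeR adjusted p = 0.000215), the zinc finger gene ZNF322 (0.59, edgeR adjusted p = 0.00498) and the butyrophilin gene BTN2A2 (0.52, edgeR adjusted p = 0.00293). Relative to the median of these neighbours, H1-2 was at 0.27, H3C6 at 0.11 and H2BC12 at -0.12 on the log2 scale. The SE of their own log2 fold changes was 0.12, 0.17 and 0.09, which leaves out the spread of the neighbours, from -0.20 to 2.28. Whether these genes differed from their neighbours was not tested. Like H2BC12, the other 28 tested members of the cluster lay below the median of the neighbours, though not below every single neighbour. Relative to it, H2AC8 was at -2.25, H2AC4 at -2.01, H3C1 at -1.68 and H3C3 at -1.36. On chromosome 1 the median was -0.13 over all genes and -0.09 over the 10 tested members. The number of copies of chromosome 6 in the cell lines was not measured here, and its part in these values was not tested.

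**Figure D5:**
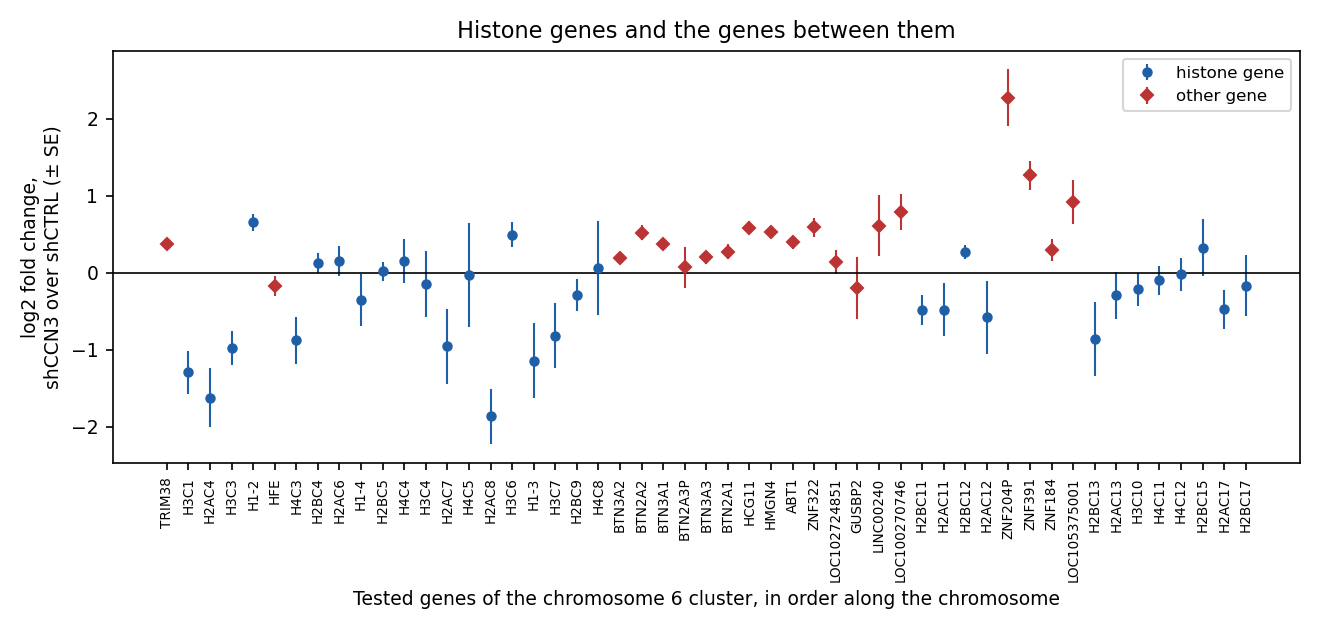
Log2 fold change (vertical axis, shCCN3 over shCTRL, bars ± SE of the edgeR fit) of the 31 tested histone genes (blue circles) and the 20 other tested genes between them (red diamonds) in their order along the chromosome 6 cluster, evenly spaced. Of the diamonds 18 lie above 0, while 22 of the 31 circles lie below it. The circles include members that passed the filter in every shCTRL library but not in every shCCN3 library.

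Neighbouring H2A and H2B genes often face away from each other and share 1 promoter region. Among the members, 12 pairs faced away from each other with starts within 500 bases. Of these, 11 were an H2A with an H2B gene and the other was H3C4 with H2BC7. The RefSeq starts of H3C4 and H2AC7 are the same, so that pair repeats the pair of H2AC7 with H2BC7. Both genes were tested in 6 pairs, each an H2A with an H2B gene. In the pair that shares the octamer printed above, H2BC21 and H2AC20 with starts 236 bases apart, the log2 fold changes were 0.41 and -0.56, and each group of libraries was apart in both genes. H2BC12 and H2AC12, 248 bases apart, had 0.27 and -0.58, the second without a call (edgeR adjusted p = 0.392). H2BC4 and H2AC6 had 0.13 and 0.16, H2BC11 and H2AC11 both -0.48, H2BC13 and H2AC13 -0.86 and -0.29, and H2BC17 and H2AC17 -0.17 and -0.47, with no call. H2AC8, with the strongest decrease, faces H2BC8, which had 68 counts in all and was not tested. The difference within a pair was not tested.

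The octamer was present in promoters of members that moved either way. H2BC12 rose and H2AC8, H2AC4 and H2AC20 fell, and all 4 promoters hold it, as does that of H2BC21. The promoters of H3C1, H3C3 and H3C6 hold a CCAAT box and no octamer. H1-2 carries the H1 box printed above at position -119 from the gene start, and the promoters of H1-3 and H1-4, which were not called, carry it at -119 and -117.

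Replication-independent histone genes, whose mRNAs are polyadenylated, gave the same libraries a reference. Of 11 tested, with H1-10 among them, 2 fell, and the median was 0.00. H2AZ2, a variant found at promoters, was at 211 ± 4.75 CPM in shCTRL and 170 ± 11.3 CPM in shCCN3 (SD, n = 3; -0.31, edgeR adjusted p = 0.00525). MACROH2A1, a variant linked to silent chromatin, was at 287 ± 2.32 and 243 ± 3.09 CPM (SD, n = 3; -0.24, edgeR adjusted p = 0.00594). H2AX, the variant phosphorylated at DNA breaks, had -0.01 (edgeR adjusted p = 0.965), and H2AZ1 had 0.00 (edgeR adjusted p = 0.983). H2AX mRNA also exists in a hairpin form. The 2 of 11 stand beside 33.4% of all genes, and without shCCN3 replicate 2, 4 of these genes were called beside 40.5% of all genes.

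The genes that make and use histone mRNA were tested in the same fit. Of 18 genes of histone mRNA 3′ end processing and decay, 1 rose and 3 fell. LSM10, a subunit of the U7 snRNP, was at 45.2, 48.9 and 55.6 CPM in shCTRL and at 28.4, 37.2 and 29.2 CPM in shCCN3, lower in every library (-0.66 ± 0.12, SE, edgeR adjusted p = 0.00205). SRRT, known as ARS2, a partner of the cap-binding complex, had -0.41 (edgeR adjusted p = 0.000434), and ERI1, an exonuclease that trims the histone mRNA end, had -0.29 (edgeR adjusted p = 0.0195). NELFE, of the negative elongation factor and located on chromosome 6, had 0.36 (edgeR adjusted p = 0.0114). SLBP itself was at 54.7, 54.0 and 56.6 CPM in shCTRL and at 64.0, 62.5 and 57.4 CPM in shCCN3, with every shCCN3 library above shCTRL and no call (0.15 ± 0.06, SE, edgeR adjusted p = 0.0961). These 4 of 18 are 22.2%, below the 33.4% of all genes, and 2 were called without shCTRL replicate 1 or 2, where NELFE (edgeR adjusted p = 0.0516 and 0.0525) and ERI1 (0.0744 and 0.0562) lost their calls. ERI1 also lost it without shCCN3 replicate 1 (edgeR adjusted p = 0.0589).

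Of 12 genes of histone transcription, POU2F1, which encodes OCT1 (0.29), YY1 (0.34) and CCNE1 (0.48) rose, and HIRIP3 (-0.31) fell, a share of 33.3% against 33.4% of all genes. HIRIP3 lost its call in 5 of 6 fits without 1 library, all but that without shCCN3 replicate 2 (edgeR adjusted p = 0.0601 to 0.0931). POU2F1 lost it without shCCN3 replicate 1 or 3 or shCTRL replicate 2 (edgeR adjusted p = 0.0599, 0.0598 and 0.0967) and with the replicate block (0.0504). NPAT, the cyclin E-CDK2 target that activates histone genes, was at 13.3 to 15.9 CPM in shCTRL and 12.8 to 17.0 CPM in shCCN3, overlapping (0.02, edgeR adjusted p = 0.940). Of 20 histone chaperone genes, ASF1A (0.34), CHAF1B (0.41) and DAXX (0.38) rose, and NASP (-0.20), ASF1B (-0.35) and RBBP4 (-0.33) fell, with ASF1A and DAXX on chromosome 6. NASP lost its call in every fit without 1 library but that without shCCN3 replicate 2 (edgeR adjusted p = 0.0646 to 0.132) and with the replicate block (0.107). Of 15 genes of the poly(A) machinery, CPSF1 (0.31) rose and CPSF4 (-0.55) and FIP1L1 (-0.50) fell, a share of 20.0%.

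Of 26 S phase genes 13 were called, against 33.4% of all genes, with a median of 0.14. GINS2 (0.60), CDT1 (0.59), CCNE1 (0.48), MCM3 (0.43), TYMS (0.31), MCM4 (0.27), CCNA2 (0.25) and RRM2 (0.19) rose. RPA2 (-0.66), ORC1 (-0.65), MCM7 (-0.36), PCNA (-0.36) and RRM1 (-0.24) fell, so genes of replication licensing and of nucleotide supply stood in both directions. Of 14 genes of G2 and mitosis, TOP2A (0.37), TPX2 (0.23), CCNB1 (0.18) and AURKA (0.18) rose, and CDC20 (-0.34) fell. In at least 1 fit without a library, MCM4, RRM1, RRM2, CCNA2, TOP2A, TPX2, CCNB1 and AURKA lost their calls, with edgeR adjusted p from 0.0506 (TPX2 without shCCN3 replicate 1) to 0.152 (CCNB1 without shCTRL replicate 2), and with the replicate block RRM2, CCNA2, TPX2, CCNB1 and AURKA lost them (0.0971, 0.0503, 0.0521, 0.124 and 0.12). Of 8 tested genes of cell cycle arrest, CDKN2B, which encodes a CDK inhibitor, rose from 10.7 ± 0.298 to 21.9 ± 0.517 CPM (SD, n = 3; 1.03, edgeR adjusted p = 8.27e-06), and CDKN1A, a CDK inhibitor gene and p53 target, rose by 0.43 on the log2 scale (edgeR adjusted p = 0.000509). CDKN1A and MCM3 lie on chromosome 6, where the median of all genes was 0.34. CCNE1, CCNE2, E2F1, HIRA and SLBP belong to more than 1 of these lists. Cell cycle distribution was not measured in these files, and its part in the histone values was not tested.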

How the data were processed

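Total RNA from 3 shCTRL and 3 shCCN3 samples of Hs578T cells was sequenced by the authors after poly(A) selection with a stranded kit. The deposited table holds raw read counts per gene, by NCBI Gene ID and symbol, without normalization. The submitters' processing notes name bcl2fastq 2.20.0, Trimmomatic, HISAT2 2.1.0, StringTie 2.1.3d and DESeq2 on GRCh38, without roles. Whether counting used strand, and how reads matching several copies were treated, is not given in the sources used here. Libraries were grouped by their labels.

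Counts were analysed in R 4.3.3 with edgeR 4.0.16 (TMM, filter by group, quasi-likelihood test, Benjamini-Hochberg adjustment over all genes tested), checked on simulated data. Alternatives were DESeq2 1.42.0, its size factors or upper-quartile normalization in edgeR, limma-voom (limma 3.58.1), the exact test of edgeR, no filter, at least 10 counts in every library, the replicate number as a block, and each library left out in turn. Totals of 56159110 to 68393177 counts set the precision, and 3 libraries per group allow no exact permutation p below 0.1.

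Members and lists were chosen with earlier results of these data known. Genes named are members with a mean of at least 1 CPM or an adjusted p under 0.05, the most counted member of each clustered family, H1-10, H2AX, H2AZ1, SLBP, NPAT, CCN3 and the called genes of each list. Members named beside these (near the threshold, in pairs or in shared spans) and cluster neighbours were chosen after their values were seen. Same-numbered libraries did not deviate together (correlations 0.089, -0.026 and -0.066), so the numbers were not taken as pairs. Sequences came from GENCODE release 29 and RefSeq (GRCh38.p14 promoters). All 70 members matched both gene tables, and 64 had a promoter. Protein sequences were not used here, and the values of 1 member and of 1 marker gene are not reported here.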

Additional observations from a re-analysis of the deposited data

How the results depend on the processing

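H1-2, H2AC8, H3C1 and H3C3 kept their direction and their call in every alternative that tested them, from 13 fits for H2AC8 to 14 for the others, and the 8 calls were shared with DESeq2, edgeR's exact test, limma-voom, DESeq2 size factors and upper-quartile normalization. The replicate block gave 6 called members (28.1% of all genes called), and so did no filter on low counts (20.4%), against 8 (33.4%), and both lost H2BC12 and H3C6. The correlations of same-numbered libraries were 0.089, -0.026 and -0.066, so these share a number and no more. In the fits without 1 library, the number of called members ranged from 5 to 10 and the share of all genes called from 23.4% to 40.5%, the number of members at least 2-fold different from 2 to 5, of replication-independent histone genes from 2 to 4, of mRNA processing genes from 2 to 6, and of genes of the other lists from 13 to 30. With at least 10 counts in every library, 1 member was at least 2-fold different against 3, since H2AC8 and H2AC4 were then not tested. Log2 fold changes near 0 changed sign among the fits that left out a library: H2BC5 from -0.0863 to 0.075, H2AC6 from -0.0341 to 0.294, H4C12 from -0.216 to 0.0964, H2AX from -0.0636 to 0.0614, H2AZ1 from -0.113 to 0.0755 and NPAT from -0.121 to 0.101. H2AZ1 was -0.00519 with limma-voom and -0.00477 with the replicate block. Depth limits the H1-3, H2AC4, H2AC8 and H2AC12 values, which rest on 5 to 48 counts per library.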
